A study of Homo sapiens with 6 samples.

Results

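The human cells of the 10X Chromium libraries were compared at 35 and 30 PCR cycles. A 10X library is made from single cells caught in droplets, where every RNA molecule receives a cell barcode and a unique molecular identifier (UMI), a random tag that lets PCR copies of 1 molecule be counted once. The labels describe both libraries as the myeloma lines JJN3 (human) and 5TGMG1 (mouse), mixed, with 2000 cells and with 30cycles or 35cycles as the treatment, and the molecule as total RNA. The groups share every other labelled property, and no drug, genotype or time point was involved. According to the study's methods the amplified cDNA was split before the last cycles, so the libraries are parts of the same capture and not separate cultures. Each cycle number had 1 library. There was therefore no replicate check and no test, and every interval below is a 95% interval for counting error only. The intervals take each count as an independent draw, although the smallest stored value is 2, so they may be too narrow. Cells were the 2000 barcodes with the largest count sum, and cells with at least 90% of their counts on human transcripts were kept as human. This gave 1006 human cells at 30 cycles and 911 at 35 cycles, 1917 of the 4000 10X cells and of the 6000 cells in the 5 libraries of the series that hold a count matrix. The mouse cells numbered 806 and 881.

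Plasma cells are the antibody-secreting end stage of the B lineage, and myeloma is their malignancy. They carry a rearranged immunoglobulin light chain gene, kappa or lambda, whose transcripts can be among the most abundant of the cell, and they depend on the endoplasmic reticulum for folding and secretion. PCR copies cDNA molecules over repeated cycles, and errors that arise in a UMI during copying can make 1 molecule look like several. Comparing cycle numbers in the same cells asks whether the counted level of a gene or isoform depends on the amount of PCR.

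The cells carried plasma cell genes. All 10 plasma cell markers had counts, 1082 in sum at 30 cycles and 877 at 35 cycles. JCHAIN, which joins antibody subunits, had 392 and 310 counts, PRDM1, the repressor that directs plasma cell differentiation, 392 and 134, and MZB1, an endoplasmic reticulum co-chaperone, 201 and 280. XBP1 (6 and 36 counts), SDC1 (29 and 38), IRF4 (22 and 27), CD38 (16 and 2) and TNFRSF17 (2 and 6) lay under the minimum for a comparison. The 10 T cell markers, the 5 B cell markers and the 5 myeloid markers were listed at 0 in both libraries. CPM is the level after scaling to a common total of 1000000 counts. Were every count stored, a count of 0 would allow up to 3 counts, a CPM of 18.5 at 30 cycles and 15.1 at 35 cycles. Values of 1 are not stored, so the levels of these markers may lie above this. Of the 5 erythroid markers only HBA2 was counted, 4 times in 1 cell at 35 cycles. The figure legend and culture section of the study name another human line, a T cell line, so the human line is named here as labelled.

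The human cells held 161961 human counts at 30 cycles and 199308 at 35 cycles. The median per cell was 117 (quartiles 91 and 182.75) at 30 cycles and 171 (135 and 236) at 35 cycles, a ratio of medians of 1.46. In the 722 barcodes that were human cells in both libraries, 71.8% of the cells at 30 cycles and 79.3% of those at 35 cycles, the median ratio was 1.38 (quartiles 1.08 and 1.69), and the 35-cycle count was the larger in 574 (79.5%). The ratio of medians was 0.987 when every barcode with at least 100 counts was taken as a cell. The smallest value stored was 2 in both libraries, and 81.3% of the stored values at 30 cycles and 74.3% at 35 cycles stood at that minimum. Values of 5 or more held 7.52% and 18.5% of the counts. Values of 1 are thus not in the matrices, and how many were left out of each library was not measured. Read numbers were not given with these matrices, so cycle number and sequencing depth cannot be told apart.

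Transcript counts were summed by gene symbol and scaled to CPM within the human counts. A gene was compared when it had at least 100 counts over both libraries, and a ratio of at least 2 was called higher or lower by its size. Of 8747 genes with counts, 391 were compared, and they held 57.6% of the human counts at 30 cycles and 64.7% at 35 cycles. At 35 cycles 40 genes were at least 2-fold higher (10.2%) and 78 at least 2-fold lower (19.9%), 118 in all (30.2%). The log2 ratio had a median of -0.19 and quartiles of -0.88 and 0.51. Scaling by the median of ratios added 0.19 to every log2 ratio and gave 57 higher and 55 lower. Leaving mitochondrially encoded and immunoglobulin genes out of the total added 0.14 and gave 53 and 61. The excess of lower genes therefore depended on the scaling. Just inside the limits lay RBBP6 at a log2 ratio of 1.03 and PSMD11 at -1.01, and just outside lay TUBA1B at 0.97 and SMAD2 at -0.999.

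**Figure D1:**
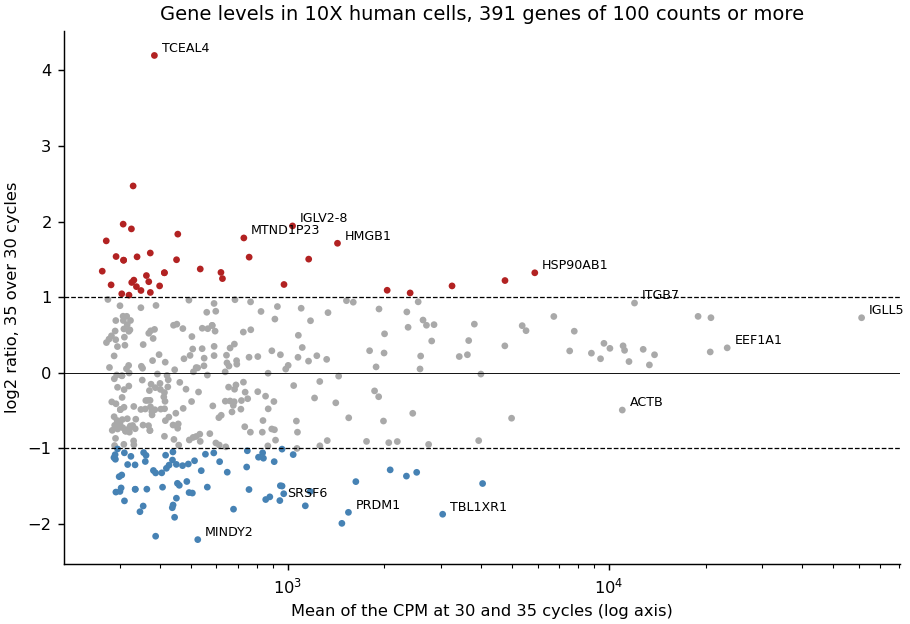
Log2 ratio of each gene, 35 over 30 cycles, against the mean of its CPM at the 2 cycle numbers on a log axis, for the 391 genes compared in 10X human cells. Points are genes, red those at least 2-fold higher (40), blue those at least 2-fold lower (78), and dashed lines mark 2-fold. The abundant IGLL5 and EEF1A1 lie inside the lines, and TCEAL4 has the highest ratio, 4.19.

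In 91 of the 312 genes with isoforms compared, isoforms had identical counts in every cell. A molecule that matched several isoforms may thus have been counted under each, and a gene sum may count it more than once. For this reason the leading transcript of each gene, the one with the most counts over both libraries, was also read alone, with an exact conditional interval. With counts taken as independent, this interval lay above 0 for 91 of the 391 genes, below 0 for 141 and across 0 for 159. The leading transcript was itself at least 2-fold higher in 35 of the 40 higher genes, and at least 2-fold lower in 69 of the 78 lower genes. All 40 higher genes were counted in more cells at 35 cycles, from a median of 9 to a median of 21.5 cells, and all 78 lower genes in fewer, from a median of 38.5 to 17.5, although the cells at 35 cycles were deeper. Most called genes thus rested on a small part of the human cells.

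The highest ratios belonged mostly to genes counted in few cells at 30 cycles. TCEAL4, of the transcription elongation factor A-like family, had 6 counts from 1 cell at 30 cycles and 146 counts from 19 cells at 35 cycles, a log2 ratio of 4.19. Its leading transcript had 2 and 34 counts (3.49, interval 1.82 to 6.89). DNAJC8, a J-domain protein, had 16 and 112 counts (2.47), and the chromatin regulator ANKRD11 had 20 and 98 (1.97). The proteasome ATPase PSMC3 had 22 and 103 counts (1.90), the chaperonin subunit CCT2 20 and 84 (1.74), and the calmodulin gene CALM2 30 and 112 (1.58). JADE1, a subunit of a histone acetyltransferase complex, had 32 and 142 counts (1.83), and its ratio ranged from 0.12 to 2.88 under the alternatives. STRBP (1.54) and OPTN (1.53) closed the highest 12, and the leading-transcript interval of STRBP held 0 (-0.14 to 2.48). CALM2 turned to -0.60 when values below 3 were left out. HMGB1, an abundant chromatin protein that bends DNA, was the member of this group with the most counts, 108 from 22 cells and 437 from 60 cells (1.71). Its ratio stayed between 1.33 and 3.06 under the alternatives.

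The lowest ratios belonged to genes counted in more cells at 30 than at 35 cycles. MINDY2, a deubiquitinase, had 140 counts from 21 cells at 30 cycles and 37 from 7 cells at 35 cycles (-2.20). C15orf40 had 103 and 28 counts (-2.16), and TAF1D, a subunit of an RNA polymerase I initiation factor, 382 and 118 (-1.99). TBL1XR1, a subunit of nuclear receptor corepressor complexes, was the one with the most counts, 773 from 101 cells and 260 from 38 cells (-1.87), and its leading transcript had 180 and 60 (-1.88, -2.33 to -1.46). These genes kept ratios below -1 under the alternatives, from -3.74 for TAF1D to -1.59 for TBL1XR1. PRDM1, the plasma cell repressor, had 392 counts from 51 cells and 134 from 19 cells (-1.84, and between -2.06 and -1.65 under the alternatives). The endoplasmic reticulum membrane protein KTN1 had 114 and 37 counts (-1.91) and the kinase CSNK1A1 110 and 39 (-1.78). The ribosomal protein gene RPL35A stood at -1.84, and FAM110D, C6orf62 and the lysosomal receptor SCARB2 at -1.76, -1.76 and -1.75. C6orf62 was counted through 1 transcript, 284 times from 123 cells at 30 cycles and 103 times from 45 cells at 35 cycles, so its ratio carries no double counting of isoforms. SCARB2 moved to 0.042 without values below 3.

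**Figure D2:**
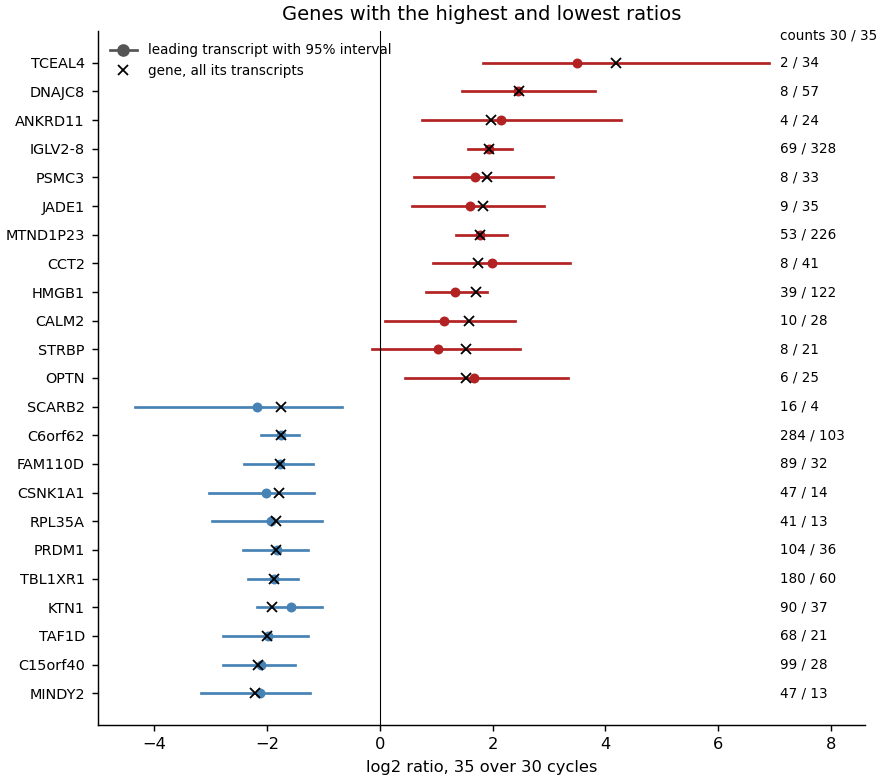
Log2 ratio, 35 over 30 cycles, of the genes named at either end. Crosses are genes with all their transcripts, dots are leading transcripts with bars for the 95% counting interval, and the numbers give the counts of the leading transcript at 30 and 35 cycles. Among the intervals drawn only that of STRBP reaches across 0, and that of TCEAL4 is the widest, from 1.82 to 6.89.

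The genes with the most counts changed less than 2-fold. EEF1A1, the elongation factor that brings aminoacyl-tRNA to the ribosome, had 3353 and 5187 counts (0.33), and RPL29 1775 and 2422 (0.15). ACTB, beta-actin, was the exception in sign, with 2085 and 1824 counts (-0.49, leading transcript -0.36, -0.53 to -0.20). At 30 cycles 1 cell alone gave 172 of the ACTB counts, from a barcode of mostly A. Leaving out barcodes with 8 or more A among their 10 bases, an alternative added after the data were seen, kept 40 genes higher and gave 79 lower. ITGB7, the beta 7 subunit of lymphocyte homing integrins, had 1345 counts from 207 cells and 3137 from 383 cells, a log2 ratio of 0.92, close to the limit. ZNF740, a zinc finger gene named here after its values were seen, had 462 and 1325 counts (1.22). It lies on the opposite strand at the same locus. The leading transcript of ZNF740 spans chr12:53180722-53195142 on the plus strand of hg38, and that of ITGB7 chr12:53191323-53207251 on the minus strand. These genomic spans, introns included, overlap over 3820 bases at the 3′ ends. Spliced, the ITGB7 transcript has 2806 bases, and shared exonic bases were not measured. Of the cells with ZNF740, 46.7% at 30 cycles and 63.4% at 35 cycles also had ITGB7. Of the cells with ITGB7, 40.6% at 30 cycles and 67.9% at 35 cycles also had ZNF740. Whether the counting used strand is not stated, so reads from the overlap may have been counted under either gene.

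The immunoglobulin lambda genes were counted most of all. IGLL5 had 7467 counts at 30 cycles and 15219 at 35 cycles, a log2 ratio of 0.73, over 3 transcripts of which the leading one had 2693 and 5382 (0.70, 0.63 to 0.77). IGLC1, a lambda constant gene, had 2294 and 4735 counts (0.75, 0.67 to 0.82), and the variable gene IGLV2-14 2535 and 5169 (0.73, 0.66 to 0.80). The ratios of these genes lay within 0.02 of each other. Each came from most of the human cells, IGLL5 from 767 and 885 of them (76.2% and 97.1%), IGLC1 from 716 and 872, and IGLV2-14 from 746 and 881. In mouse cells, which have no human genes, IGLL5 was counted in 6 of 806 cells (0.744%) and 46 of 881 (5.22%), at median depths of 117 and 171 counts in mouse cells and 118 and 171 in human cells. The counts of IGLL5 in mouse cells were 35 and 237.

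IGLL5 and IGLC1 are not separate in sequence. The last exon of IGLL5 holds the whole IGLC1 exon, 460 of its 733 bases, at chr22:22895375-22895834 of hg38 on the plus strand. The end of IGLL5 exon 2 joined to the start of exon 3 is shown to make this visible, with the bases of the IGLC1 exon in capitals, beside the same bases of IGLC1. Both are coding sequence of the reference genome, 5′ to 3′.
IGLL5 exon 2 to 3: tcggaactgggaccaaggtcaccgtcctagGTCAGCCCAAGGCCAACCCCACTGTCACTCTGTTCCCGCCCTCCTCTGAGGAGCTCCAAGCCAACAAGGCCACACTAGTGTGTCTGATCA
IGLC1 exon: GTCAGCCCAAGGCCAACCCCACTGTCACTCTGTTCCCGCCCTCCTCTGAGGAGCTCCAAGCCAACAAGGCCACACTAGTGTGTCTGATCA
A molecule read from this exon therefore matches both genes, and neither count says which gene it came from.

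Within cells, the share of human counts on IGLL5 had a median of 5.03% (quartiles 1.71 and 7.68%) at 30 cycles and 7.97% (5.67 and 10.6%) at 35 cycles. IGLL5, IGLC1 and IGLV2-14 together made up a median of 8.32% and 13.2%. Among the 722 shared cells the share of these 3 genes was higher at 35 cycles in 538 cells, lower in 168 and equal in 16, with a median difference of 3.99 percentage points.

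IGLV2-8, a variable gene close in sequence to IGLV2-14, had a much larger ratio than its neighbour. It had 69 counts from 32 cells and 328 from 139 cells (1.94, 1.57 to 2.35), through 1 transcript. Over the 300 aligned bases of their V exons the reference sequences differed at 13 positions (95.7% identity). The 100 bases with the most differences are shown, from chr22:22823145-22823244 for IGLV2-8 and chr22:22759067-22759166 for IGLV2-14 on the plus strand, with the differing bases in capitals.
IGLV2-8: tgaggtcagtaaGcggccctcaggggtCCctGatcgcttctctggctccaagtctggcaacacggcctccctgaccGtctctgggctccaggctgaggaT
IGLV2-14: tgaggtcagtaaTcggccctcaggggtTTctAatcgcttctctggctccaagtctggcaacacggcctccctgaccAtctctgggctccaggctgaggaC
IGLV2-8 held 2.65% of the counts of the pair at 30 cycles and 5.97% at 35 cycles, and the sum of the pair had a log2 ratio of 0.78, close to that of IGLV2-14 alone.

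All 12 mitochondrially encoded coding genes that were compared had log2 ratios above 0, between 0.10 and 0.74, with a median of 0.30. None was called. The median of ratios adds 0.19 to every log2 ratio, so that scale could not bring any of them below 0. MT-CO1, the catalytic subunit of cytochrome c oxidase, had 3031 counts from 834 cells and 4516 from 877 cells (0.28, 0.21 to 0.34). MT-CYB, of complex III, had 816 and 1683 counts (0.74), the largest ratio of the 12, and the complex I subunit MT-ND4 had 2088 and 2762 (0.10, 0.02 to 0.19), the smallest. The genes MT-CO3 (0.31), MT-ATP6 (0.24) and MT-ATP8 (0.36) lay between. Without values below 3 the ratios of MT-ATP6, MT-ND4 and MT-ATP8 turned to -0.21, -0.22 and -0.02. The share of a cell's counts on these genes had a median of 10.3% at 30 cycles and 12.8% at 35 cycles, and was higher at 35 cycles in 501 of the 722 shared cells (69.4%).

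MT-ATP8 and MT-ATP6, subunits of the ATP synthase, are read from 1 transcript and overlap by 46 bases on chrM:8527-8572 of hg38. The overlap is shown in capitals, with 20 bases on each side.
MT-ATP8 and MT-ATP6: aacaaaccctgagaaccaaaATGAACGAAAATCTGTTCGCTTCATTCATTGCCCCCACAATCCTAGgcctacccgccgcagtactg
Of the cells with MT-ATP8, 99.4% at 30 cycles and 99.2% at 35 cycles also had MT-ATP6, and 64.4% and 57.1% had exactly the same count of both. These genes are therefore not independent measurements. MT-ATP6 was counted in more cells, 605 and 713, than MT-ATP8, 492 and 643.

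Copies of mitochondrial genes on chromosome 1 had ratios as large as or larger than the genes they resemble. They were named after their values were seen, except MTND1P23, which was among the highest 12. MTND1P23, an unprocessed pseudogene at chr1:629062-629433, had 53 counts from 25 cells and 226 from 91 cells (1.78, 1.36 to 2.25), against 1450 and 2233 for MT-ND1 (0.32). Over 352 aligned bases the sequences of this pair differed at 3 positions (99.1% identity). The 100 bases that hold the most of these differences are shown, from chr1:629175-629274 and chrM:4005-4104, with the differing bases in capitals.
MTND1P23: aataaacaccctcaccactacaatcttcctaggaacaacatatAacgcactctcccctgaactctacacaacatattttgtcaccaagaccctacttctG
MT-ND1: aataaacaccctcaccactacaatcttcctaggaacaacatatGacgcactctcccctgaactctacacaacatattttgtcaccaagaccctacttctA
A read with a few errors can fall on either of these. MTCO1P12 had 253 and 648 counts (1.06) against 0.28 for MT-CO1, MTATP8P1 326 and 651 (0.70) against 0.36 for MT-ATP8, and MTATP6P1 1627 and 2460 (0.30) against 0.24 for MT-ATP6. The aligned parts of these pairs were 98.1%, 97.6% and 98.5% identical. As a share of the pair, MTND1P23 went from 3.53% to 9.19%, MTCO1P12 from 7.70% to 12.5%, MTATP8P1 from 17.2% to 20.8% and MTATP6P1 from 44.1% to 45.1%. Sequencing errors were not read here, and their part in these shares was not tested.

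Gene groups were compared with the 391 genes, of which 10.2% were higher and 19.9% lower, with a median log2 ratio of -0.19. Members past 2-fold that the naming rule did not give were named after their values were seen. The cytosolic and mitochondrial chaperones had the highest median of the groups with at least 5 members compared, 0.85 over 7 of 22 members, with 3 higher (42.9%), 1 lower (14.3%) and 3 neither. HSP90AB1, the constitutive cytosolic HSP90, had 544 counts from 69 cells and 1675 from 178 cells (1.32), its leading transcript 144 and 429 (1.27), and stayed above 1 under the alternatives (1.10 to 1.92). DNAJC8 and CCT2 were the other two higher members, HSPA8, the constitutive cytosolic HSP70, had 127 and 283 counts (0.85), and PTGES3, the HSP90 co-chaperone p23, was the lower one (122 and 71 counts, -1.08), though not with either other scale.

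Proteins that bind chromatin and histones were mixed in direction. Of 4 high mobility group genes compared, HMGB1 was higher and 3 were neither, HMGN2 at 0.63 and HMGN1 at -0.38 among them, and the median was 0.74. Of 8 nucleolar and histone chaperones, NASP (26 and 91 counts, 1.49) and ANP32B (28 and 78, 1.16) were higher and ANP32E (479 and 242, -1.28) was lower, with PTMA, the most counted, at 1354 and 2183 (0.39). The closely related ANP32B and ANP32E thus lay on opposite sides. Of 12 splicing regulators 3 were higher (25.0%, against 10.2% of all genes compared) and 2 lower (16.7%, near the 19.9% of all). HNRNPA1 (48 and 154 counts, 1.37), HNRNPM (34 and 103, 1.29) and SRSF4 (40 and 110, 1.15) were higher, and SRSF6, counted through 1 transcript, was the lowest, with 234 counts from 101 cells and 89 from 39 cells (-1.69, -2.06 to -1.34), followed by HNRNPH1 (115 and 63, -1.16).

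The genes of protein synthesis scattered around the median. Of 24 large ribosomal subunit genes compared, RPL27A was higher (36 and 95 counts, 1.09), RPL35A (88 and 30) and RPL23 (285 and 118, -1.57) were lower and 21 were neither, with a median of 0.15. Of 20 small subunit genes none was higher (1 with the median of ratios) and 3 were lower, among them RPS15A (123 and 50, -1.59) and RPS7 (108 and 48, -1.46), and the median was -0.01, which turned positive with either other scale. Members with many counts were RPL6, at 0.26 with 1301 and 1917 counts, and RPS3, at 0.64 with 362 and 693. Of 7 translation factors EEF1G was higher (38 and 118 counts, 1.32, and -0.29 without values below 3) and EIF4B was lower (110 and 48, -1.49).

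The endoplasmic reticulum group, which serves antibody secretion, had a median of -0.31 over 10 of 33 members and no member past 2-fold on the CPM scale. Its range ran from HERPUD1, a protein of the degradation machinery, at -0.91 (464 and 304 counts) to the signal peptidase subunit SPCS2 at 0.95 (168 and 401). HSP90B1, the reticulum's HSP90, had 283 and 668 counts (0.94) and SSR2, of the translocon-associated complex, 506 and 837 (0.43). With either other scale SPCS2 and HSP90B1 passed 2-fold, as did H2AZ1, MYL6, PSMD7, B2M and TUBA1B of the groups that follow. Of 3 plasma cell markers compared, PRDM1 was lower, while JCHAIN at -0.64 and MZB1 at 0.18 were not called. Of 5 cell cycle genes none was called, with H2AZ1 at 0.88, STMN1 at 0.80 and the cyclin CCND2 at -0.32 (345 and 341 counts). Of 7 actin cytoskeleton genes none was called, from ACTB at -0.49 to the light chain MYL6 at 0.92, and GAPDH (482 and 927 counts, 0.64) and ENO1 (72 and 38, -1.21) were the only glycolytic genes compared. PSMC3 and PSMD7 (0.89) stood for the proteasome, and B2M (75 and 181 counts, 0.97) for MHC class I. B2M turned to -0.30 when transcripts were matched only at the same identifier version. TUBA1B (30 and 73, 0.97) stood for the tubulins, and NDUFB8 (0.19) and COX4I1 (-0.19) for nuclear-encoded oxidative phosphorylation. The 2 ferritin genes together had 52 and 82 counts, so neither was compared.

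**Figure D3:**
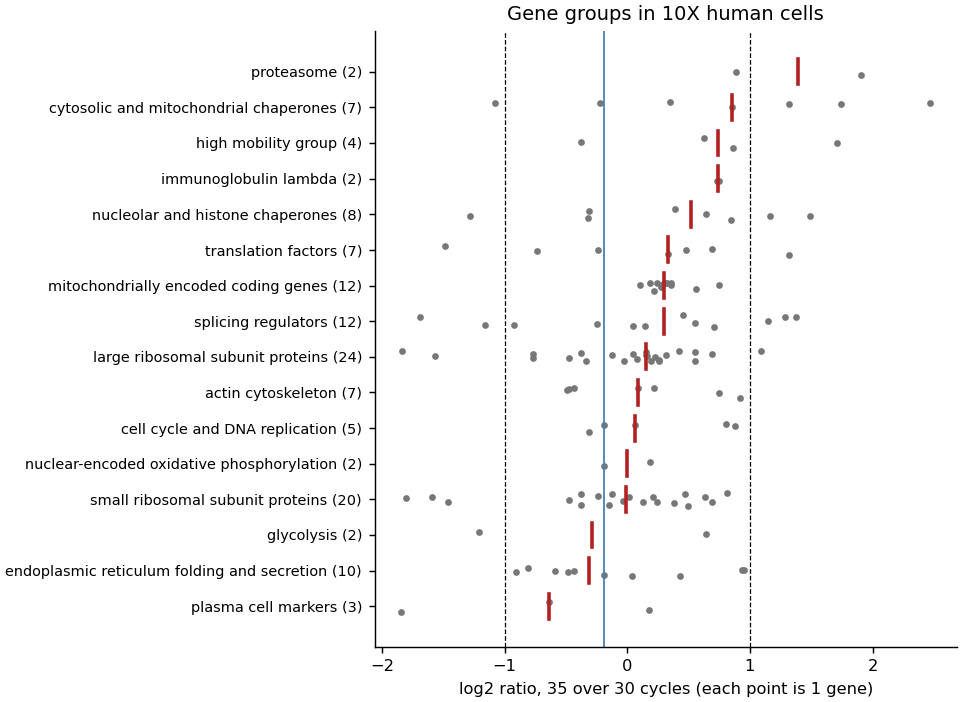
Log2 ratio, 35 over 30 cycles, of the genes in each group with at least 2 members compared, the number compared in parentheses. Points are genes, red bars group medians, the blue line the median of all 391 genes (-0.19) and dashed lines 2-fold. The mitochondrially encoded genes lie together between 0.10 and 0.74, while the splicing regulators and the ribosomal proteins spread to both sides.

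Transcript length and base composition, which the choice of cells did not use, moved with the ratio. The 130 genes of shortest count-weighted transcript length, 207 to 2077 bases, had a median log2 ratio of 0.24, with 15 higher and 8 lower. The 131 genes of longest transcripts, 4843 to 33089 bases, had a median of -0.70, with 12 higher and 42 lower, and the 130 between them had -0.28. The long genes were thus lower than the short ones by a difference of medians of -0.93, which stayed between -1.54 and -0.84 under the alternatives. By GC content, the 130 genes lowest in GC had a median of -0.70 and the 131 highest had 0.19. Length and GC content were themselves related across genes (Spearman's rho -0.46), and the log2 ratio had a rho of -0.36 with length and 0.33 with GC content over the 391 genes, which are not independent. Among genes longer than the median, 141 low in GC had a median of -0.71 and 55 high in GC -0.16. Among shorter genes, 54 low in GC had a median of 0.00 and 141 high in GC 0.24. Each property was thus related to the ratio within both levels of the other. The 78 lower genes had a median length of 5024 bases and a GC content of 42.3%, against 3226 bases and 44.9% over all genes compared, and the 40 higher genes had 3124 bases and 46.2%. Abundance showed a weaker trend, with medians of -0.38 for the 130 genes of fewest counts and 0.19 for the 131 of most.

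**Figure D4:**
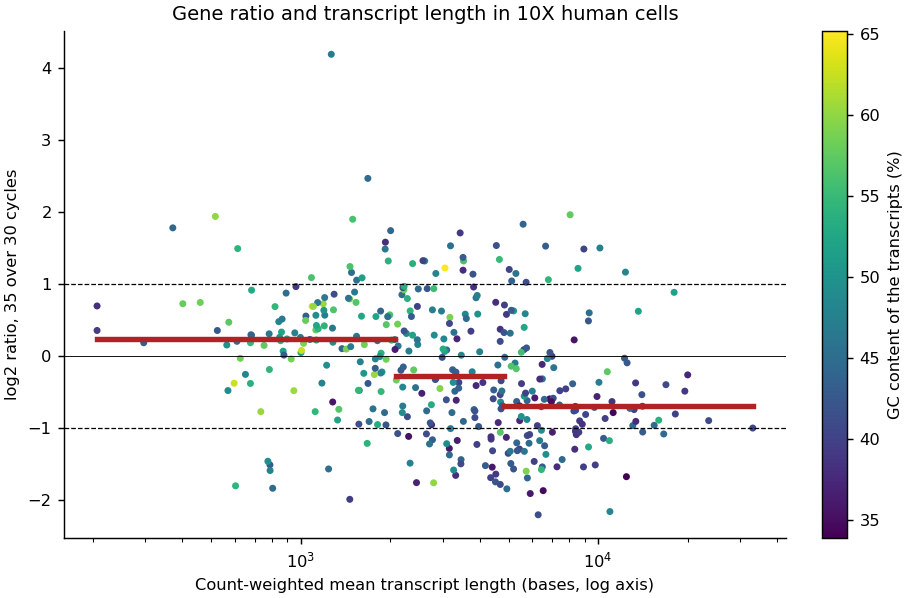
Log2 ratio, 35 over 30 cycles, against the count-weighted mean transcript length on a log axis, for the 391 genes compared. Points are genes, coloured by GC content, red bars are the medians of the short, middle and long genes (0.24, -0.28 and -0.70), each drawn over its length range, and dashed lines mark 2-fold.

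The shares of the kinds of transcript also changed. Protein-coding transcripts held 70.0% of the human counts at 30 cycles and 71.3% at 35 cycles. Immunoglobulin variable genes went from 1.61% to 2.77%, immunoglobulin constant genes from 1.42% to 2.38% and unprocessed pseudogenes from 1.45% to 2.07%. Retained-intron transcripts keep an intron and are not thought to code for the full protein. They went from 8.57% to 6.73%, with 13885 and 13412 counts. Targets of nonsense-mediated decay went from 5.05% to 4.52%, and transcripts of coding genes without a defined coding sequence from 3.16% to 2.25%. Long noncoding RNAs went from 0.628% to 0.464% and processed pseudogenes from 0.642% to 0.452%. A retained-intron transcript led 7 of the 78 lower genes (8.97%), 1 of the 40 higher genes (2.50%) and 30 of all 391 (7.67%). These shares come from the annotation of the transcript a read was counted under, and a molecule may have been counted under several.

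Isoform shares moved little where counts were high. The share of each transcript in its gene's counts was compared in 312 genes with at least 25 counts in each library, and 8 genes (2.56%) had an isoform whose share changed by 20 percentage points or more. The median of the largest change in a gene was 6.09 points. Among the 89 of these genes past 2-fold at gene level it was 6.63 points and among the rest 5.88, and 3 of the 89 were called. The called genes had at most 159 counts over both libraries. None of the 82 genes with at least 300 counts was called, and the largest change among them was 18.2 points, in MDM2, named after its value was seen. In 91 of the 312 genes (29.2%) isoforms had identical counts in every cell. A gene found in a cell was counted under more than 1 isoform in 59.8% of cases at 30 cycles and 68.6% at 35 cycles, and under 2.09 and 2.32 isoforms on average.

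The largest isoform change was in RNF213, a large E3 ubiquitin ligase. Its isoform ENST00000582970 held 34 of 34 counts at 30 cycles (100%, exact interval 89.7 to 100%) and 48 of 78 at 35 cycles (61.5%, 49.8 to 72.3%). The isoform that gained most, ENST00000508628, went from 0 to 12 counts, and it shares 17583 bases of exon with the first, 99.2% of its own length. In SMG1, the kinase that starts nonsense-mediated decay, a retained-intron isoform at chr16:18875947-18879661 went from 43 of 86 counts (50.0%) to 16 of 73 (21.9%), and another at chr16:18856338-18861487, which shares no exonic base with it, from 25 (29.1%) to 35 (47.9%). The SMG1 pair was the only one without shared exonic sequence among the 10 genes with the largest isoform changes. In the histone chaperone NAP1L1, ENST00000618691, whose 13159 bases contain all 1981 of ENST00000552056, went from 51.4% to 28.8%, and the shorter one from 5.41% to 21.9%. In CALM2, ENST00000655450 went from 2 of 30 counts (6.67%) to 30 of 112 (26.8%). In KTN1 a retained-intron isoform of 2 exons, ENST00000554831, held 90 of 114 counts (78.9%) and then all 37 (100%), while the coding and nonsense-mediated decay isoforms, at 2 to 6 counts each at 30 cycles, were listed at 0. In IL6ST, the gp130 receptor subunit, ENST00000381298 went from 10.2% to 31.5%, and in MCF2L2 the retained-intron isoform ENST00000461074 from 100% to 78.3%. Just under the limit lay ST3GAL5, the GM3 ganglioside synthase, at -19.9 points and HNRNPC at -19.7. With a minimum of 200 counts per gene, none of 137 genes was called. Within genes the count-weighted mean isoform length was shorter at 35 cycles in 153 genes, longer in 154 and equal in 5. Since a molecule may have been counted under several isoforms, this split cannot show whether length mattered within genes.

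The same cells gave largely different entries at the 2 cycle numbers. In the 722 shared cells, 33833 pairs of cell and gene were stored at 30 cycles and 37253 at 35 cycles, and 9976 were stored in both, which is 29.5% of the first and 26.8% of the second. For the 12 genes that were among the 10 most counted at either cycle number, 87.8% of the entries at 30 cycles were stored again at 35 cycles, and for genes under the minimum for a comparison 5.61%. For the 40 higher genes it was 48.8%, where the entries went from 765 to 2038, and for all 391 genes compared 47.8%. For the 78 lower genes it was 13.9%, where the entries went from 3024 to 1716. Of the entries at 35 cycles, 18.3% for the higher genes, 24.5% for the lower and 40.3% for all 391 were also stored at 30 cycles. The calls themselves shape the numbers of entries, so neither share compares the higher with the lower genes. IGLL5 was stored in 573 and 698 of the shared cells and in 564 at both. HMGB1 was stored in 15 and 50 and in 6 at both, TBL1XR1 in 74 and 37 and in 12 at both, and TCEAL4 in 1 and 15 with none at both.

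The Drop-seq libraries of the series, made from the same labelled lines at 30 and 35 cycles, gave 166 and 165 human cells. Their smallest stored value was 3, their labels give 500 cells each, and only values within each platform were compared. The UMI design also differed. According to the study, Drop-seq UMIs were built from blocks of identical bases so that errors can be corrected, and Chromium UMIs from single bases. The study's methods describe Drop-seq counting both with and without this correction. Which of these counts the matrices hold was not established. Of 304 genes compared in Drop-seq, 3 were at least 2-fold higher (0.987%) and 3 lower (0.987%), and the SD of the log2 ratio across genes was 0.46, against 0.93 in 10X. Of 102 genes compared on both platforms, 19 were called in 10X, 8 higher and 11 lower, and 0 in Drop-seq by the same rule of size. In these 102 genes the SD was 0.77 in 10X and 0.34 in Drop-seq. HMGB1, at 1.71 in 10X, had 169 and 272 counts in Drop-seq (0.21), HNRNPA1, at 1.37, had 117 and 126 (-0.37), and RPL35A, at -1.84, had 86 and 154 (0.36). KTN1 stood at -0.01 in Drop-seq. ENO1 was the lower gene with the lowest Drop-seq ratio, at -1.21 in 10X and -0.87 in Drop-seq (105 and 80 counts). With the Drop-seq genes split by length in the same way, short ones up to 1053 bases and long ones from 2011 bases, the long genes differed from the short ones by -0.04. These ranges lie below those of 10X. By the 10X limits, chosen after the data were seen, 17 long and 208 short Drop-seq genes differed by -0.22, against -0.93 for the 10X genes. The difference between the platforms was not tested, since each had 1 library per cycle number. The parts of UMI design and of the human cells in it were not tested either.

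**Figure D5:**
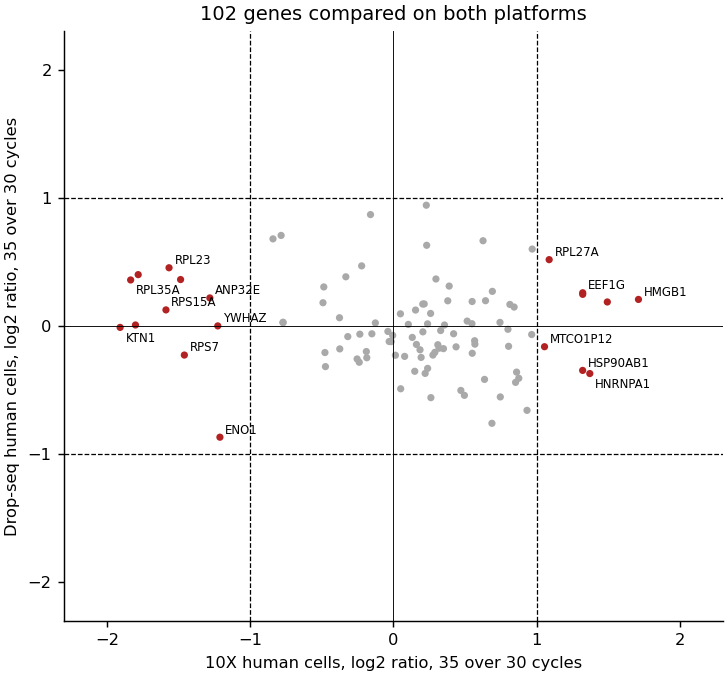
Log2 ratio, 35 over 30 cycles, in 10X human cells (horizontal) and Drop-seq human cells (vertical) for the 102 genes compared on both platforms. Points are genes, red those called in 10X (19, most of them labelled), and dashed lines mark 2-fold. All points lie inside the horizontal dashed lines, and the red points lie on both sides of 0 on both axes.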

How the data were processed

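The deposited matrices hold UMI counts per barcode and Ensembl transcript, made by the authors before any normalization. Their methods name Guppy for base calling, a search beside the polyA tail for barcode and UMI, minimap2 for alignment to transcripts of hg38 and mm10, and the directional mode of UMI-tools for counting the 10X UMIs. The smallest value of 2 in the files is not explained there. The barcodes in the files have 10 bases, shorter than the barcode length the methods give, and different cells may share a shortened barcode. No doublet caller was run.

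Human transcripts were matched to GENCODE release 44 on hg38 without their version (93.4% matched, and 6.73% and 6.48% of the human counts at 30 and 35 cycles did not and stayed in the total). The log2 ratio was taken on CPM with 0.5 counts added to each side. Shares have exact Clopper-Pearson intervals and ratios exact conditional binomial intervals, which cover counting error only, since the molecules were copied by PCR. Both kinds take counts as independent. Named genes were the 12 highest and 12 lowest ratios, the 10 most counted of each library, the 10 largest isoform changes, for each group the highest, the lowest and the 2 most counted members, and IGLL5. A few genes that met these rules are not reported here, and stayed in the totals and counts. Members, lists and rules were chosen with earlier results of these data known. Sequence pairs were aligned without gaps. The gene comparison was run on simulated independent counts, scaled by the median of ratios and not by CPM. The simulation had no stored minimum and no molecule counted under several isoforms, so it does not cover these features. Alternatives changed the cells, purity, minimum, scaling, stored minimum, depth, transcript matching and limits. Python 3.11.15, numpy 2.4.6, pandas 2.3.3, scipy 1.17.1 and matplotlib 3.10.9 were used. The 25-cycle Drop-seq matrix entered only the count of cells of the series, and mouse levels were not analysed here.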

Additional observations from a re-analysis of the deposited data

Results flagged for a closer look

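HSP90AB1, the constitutive cytosolic HSP90, stood out because its log2 ratio on the CPM scale had opposite signs on the 2 platforms, although its counts were larger at 35 cycles on both. Its log2 ratio, 35 over 30 cycles, was 1.32 in 10X human cells, with 544 and 1675 counts, and -0.35 in Drop-seq human cells, with 294 and 322 counts. The platforms also differed in UMI design, and several plasma cell genes counted in 10X were not listed in Drop-seq. The difference in sign was not tested, since each platform had 1 library per cycle number.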

How the results depend on the processing

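The counts of genes rested on the minimum and on the transcripts counted. With 50 counts as the minimum 100 of 824 genes were higher and 181 lower, and 33 of 491 changed in isoform share. With 200 counts 14 of 183 genes were higher and 29 lower, and 0 of 137 changed in isoform share. The leading transcript alone gave 10 higher and 48 lower of 205 genes compared. Taking 1000 barcodes as cells gave 22 higher and 52 lower of 268, and a 1.5-fold limit 83 and 142 of 391. A limit of 10 percentage points gave 73 of 312 genes in isoform share. Without values below 3, only 94 genes were compared, of which 15 were higher and 31 lower, and 1 of 51 changed in isoform share. Under that setting the ratio of median counts per cell was 2.02, and the long genes differed from the short by -1.54. Also, 13 of the named genes turned in sign, 3 of them called, CALM2 (-0.60), SCARB2 (0.042) and EEF1G (-0.29). The ratio of median counts was 1.30 with 1000 barcodes and 1.34 in the barcodes that were human cells in both libraries. It was 0.987, turned in direction, with all barcodes of at least 100 counts, a rule that kept 658 and 1118 human cells. The causes were not tested, apart from the smaller or larger number of genes that a minimum leaves. Thinning the 35-cycle library to the total at 30 cycles gave 32 higher and 72 lower genes of 329 compared. Over the 83 genes that met the naming rules 1138 of 1162 values under alternatives kept their sign and 24, from 17 genes, turned, and 1067 moved by less than the counting error of the leading transcript. These values include 83 each from minimums of 50 and 200 counts, which cannot change a gene's ratio. Without values below 3, 52 of 83 values moved by more than the counting error. With 1 library per cycle number no replicate could be left out. No paired analysis was possible because each group held 1 sample. The minimum of 100 counts was a choice, and genes under it are not described.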
